A study of Saccharomyces cerevisiae with 12 samples.

Results

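The genes described here encode the proteins of the mitochondrial ribosome of budding yeast. They were taken from the count table by name: every row whose standard name in the R64 annotation is MRP, MRPL, MRPS or RSM followed by a number, or is IMG1 or IMG2. The rule found 69 of the 6692 gene entries. Of these, 28 encode small subunit proteins, 40 encode large subunit proteins, and 1, MRP8, belongs to neither subunit despite its name. RSM22 is counted with the small subunit here, although the annotation names it a tRNA methyltransferase and not a ribosomal protein. All 69 passed the filter on low counts and were tested. MRP8 is kept out of every count and median below and is described on its own, so that "member" means the 68 genes of the 2 subunits.

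The mitochondrial ribosome translates the few messenger RNAs made from mitochondrial DNA, most of which encode core subunits of the respiratory chain and of the ATP synthase. Its proteins, apart from Var1, are encoded in the nucleus, made in the cytosol and imported, so their messenger RNAs are counted among the nuclear transcripts. In yeast many of these messenger RNAs carry, in the 3′ untranslated region, a binding site for Puf3, an RNA-binding protein that governs the decay, translation and localization of transcripts for mitochondrial proteins.

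The study asked how a mutation in the YEATS domain of Taf14 alters transcription. Taf14 is a subunit shared by several transcription and chromatin complexes, TFIID and TFIIF among them, and the YEATS domain recognizes acylated lysine residues on histone H3. Total RNA from 4 strains in the BY4741 background was sequenced, with 3 libraries each. The W81A strain was a taf14 deletant carrying the mutant gene on a plasmid, pRS313-taf14W81A-HA3-SSN6. The deletion strain was the taf14 deletant carrying the empty vector pRS313-HA3-SSN6. The TAF14 strain was the taf14 deletant carrying the full-length gene on pRS313-TAF14-HA3-SSN6. The wild type had its own TAF14 gene and carried the empty vector. The 2 strains that express Taf14 from a plasmid therefore differ from the wild type in the deletion and the plasmid copy as well. Nothing states whether the 3 libraries of a strain came from separate transformants or cultures, so p-values measure the spread between these libraries.

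The libraries each held between 9007715 and 11662085 counts. TAF14 itself read 0.437, 0.199 and 0.484 CPM (counts per 1000000 counts of the scaled library) in the deletion strain, where the gene is absent. It read 223, 203 and 192 CPM in the W81A strain, 355, 143 and 302 CPM in the TAF14 strain, and 132, 129 and 148 CPM in the wild type. The 3 deletion libraries and TAF14 replicate 2 carried a higher signal over all of chromosome XII: the median gene of that chromosome, over 469 genes that are not members, stood 0.44, 0.45 and 0.51 log2 units above the wild type mean in the deletion strain and 0.55 in TAF14 replicate 2, and between -0.007 and 0.025 in the other 8 libraries. W81A replicate 2 was high for the members described here. CPM are shares of a library, so a change in the total RNA of a cell would not be seen. Each comparison was fitted with edgeR's quasi-likelihood test on all 12 libraries, and a gene was called higher or lower at a Benjamini-Hochberg adjusted p below 0.05 over 5918 tested genes. The 6 comparisons reuse the same 12 libraries, so any 2 that share a strain are not independent.

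The members share the letters TGTANATA, the core of the Puf3 binding site. Within the 150 bases after the stop codon, on the sense strand, 67 of the 68 members held it (98.5%), against 754 of the 5986 nuclear protein-coding genes of the table (12.6%). All 40 large subunit genes and 27 of the 28 small subunit genes had it. The exception was RSM22, which the annotation names a tRNA methyltransferase and which is counted here with the small subunit. MRP8 had none either. The sites below belong to the members whose values carry the results. Each is given with 30 bases around it, 5′ to 3′ on the strand of the gene, read from the R64 genome, with the 8 letters of the motif in capitals.
MRP51, small subunit, chrXVI:327697-327726, plus strand: attcagagttcTGTAAATAaataaagaaaa
RSM18, small subunit, chrV:253886-253915, minus strand: atagttctgtcTGTAAATAtacaatatgta
MRPS5, small subunit, chrII:722314-722343, plus strand: aatactaTGTACATAcacacgcaccattat
MRP17, small subunit, chrXI:437038-437067, minus strand: ctacaaacacaTGTAAATAcatacatatct
MRP2, small subunit, chrXVI:876214-876243, minus strand: ggatacgcactTGTAAATAaatacatgata
MRPS8, small subunit, chrXIII:572761-572790, plus strand: tatacggaccaTGTAAATAataatattata
MRPL7, large subunit, chrIV:937564-937593, plus strand: cccattcgtcaTGTAAATAtataaactgta
MRPL17, large subunit, chrXIV:171334-171363, minus strand: cgtcaatcacaTGTAAATAtcattaaatga
MRPL22, large subunit, chrXIV:303536-303565, minus strand: ataatattgtgattcTGTAAATAacaacta
MRPL4, large subunit, chrXII:1015467-1015496, plus strand: accctctctccTGTAAATAtatatatatat

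The fifth base of the motif is A in 9 of these 10 sites and C in that of MRPS5, while the genes behind the sites differ in direction, as the comparisons show. The first site lay between 8 and 139 bases after the stop codon, with a median of 51. The fifth base of the site was A in 47.8% of the 67 members, and in 28.4% of the 687 genes outside the module that held the motif. The base 2 positions before the site was C in 48 of the 67 members (71.6%), against 173 of 678 genes outside it (25.5%). Small and large subunit genes differed a little in these letters: the fifth base was A in 16 of 27 small subunit sites (59.3%) and in 16 of 40 large subunit sites (40%). In the 250 bases before the start codon, AATTTT on either strand was found in 26 of the 68 members (38.2%) and in 48.6% of all nuclear protein-coding genes. These matches describe the letters in the windows and show no binding.

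Members differed widely in level, and the 2 subunits had similar middles. Per kilobase of coding sequence, over all 12 libraries, the median was 54.6 CPM per kb for small subunit genes (range 30.6 to 105) and 51.0 CPM per kb for large subunit genes (range 6.02 to 129). The highest were MRPL39 and MRPL33, which encode bL33m and uL30m of the large subunit, at 129 and 125 CPM per kb, and RSM18, which encodes bS18m of the small subunit, at 105 CPM per kb. The lowest were MRPL38, for uL14m of the large subunit, at 6.02 CPM per kb, MRPL4 at 24.2 CPM per kb and MRPL51, for mL43, at 25.7 CPM per kb. MRPL38 read between 1.41 and 3.60 CPM in the 12 libraries, too low for small changes to be detected. The coding sequences of MRP4, MRPL19 and MRPL51 overlap an annotated open reading frame, and since the strand setting of the counting is not given in the sources used here, their counts are uncertain. Overlap with the 684 entries that have no match in R64 could not be checked. The other members, MRPL38 among them, are therefore not shown to be free of overlap.

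Of the 68 members, 37 were called in none of the 6 comparisons (54.4%), against 24.4% of all tested genes. Another 12 were called in 1 comparison, 11 in 2, 4 in 3 and 4 in 4. The 4 called most often were MRP2 and MRP17 of the small subunit and MRPL17 and MRPL22 of the large subunit. The 37 members without a call included IMG1 and IMG2, which encode the large subunit proteins bL19m and mL49 and were found as genes needed to keep the mitochondrial genome. They also included RSM22 and the low-count MRPL38. Lack of a call does not show lack of change: RSM19, also uncalled, had a log2 fold change of 0.354 in the W81A strain against the wild type. Levels and standard errors of the members were not compared with those of all tested genes. IMG1 read 28.0, 35.6 and 31.3 CPM in the W81A strain, 29.7, 36.8 and 34.9 CPM in the deletion strain, 29.6, 28.9 and 26.8 CPM in the TAF14 strain, and 31.1, 35.6 and 22.2 CPM in the wild type. IMG2 read 24.3, 29.1 and 24.0 CPM in the W81A strain, 23.0, 27.0 and 20.7 CPM in the deletion strain, 26.2, 21.1 and 26.2 CPM in the TAF14 strain, and 25.9, 26.5 and 23.3 CPM in the wild type. For both genes the wild type range overlapped that of each other strain.

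**Figure D1:**
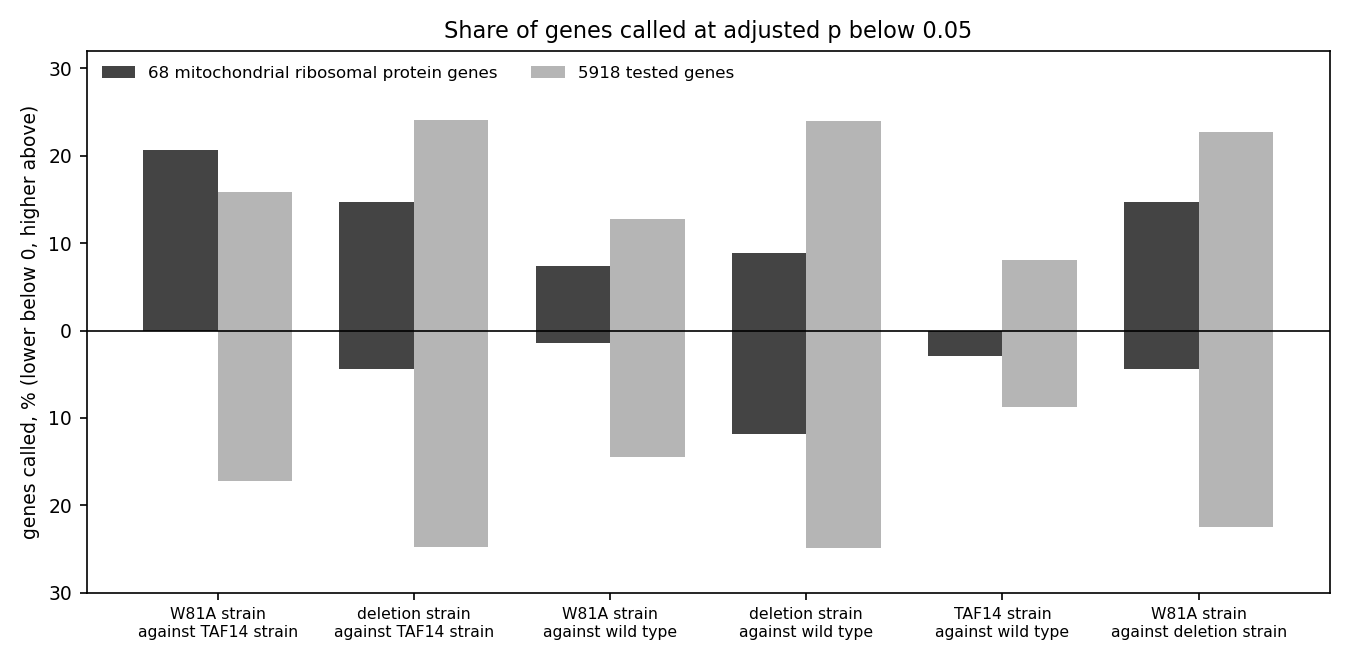
Share of genes called higher (above 0) and lower (below 0) at an adjusted p below 0.05, in percent, for the 68 members (dark bars) and for all 5918 tested genes (light bars) in each of the 6 comparisons. The members exceed the background in 1 of the 12 pairs of bars, higher in the W81A strain relative to the TAF14 strain (20.6% against 15.8%), and none was called lower there. The bars show edgeR calls, and DESeq2 called 10 members higher there where edgeR called 14. No DESeq2 share of all tested genes is given, so whether the excess holds with DESeq2 is not shown.

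The W81A strain against the TAF14 strain compares the mutant with the intact gene, both on the plasmid. In this comparison 14 members were called higher, 7 in each subunit, which is 20.6% of members against a background of 15.8% of tested genes called higher. DESeq2 called 10 members higher, 5 in each subunit. The 15.8% is an edgeR share, so it is no background for the DESeq2 count, and no DESeq2 share of all tested genes is given. None was called lower (background 17.2%), by edgeR, by DESeq2 or at an unadjusted p below 0.05. The median log2 fold change was 0.15 over the 68 members, 0.22 over small and 0.15 over large subunit genes, and 58 of the 68 were above 0. The median over all tested genes was 0.000. The groups did not overlap for 24 of the 68 members (35.3%), below the 45.9% of tested genes for which this held.

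In the small subunit the calls fell on proteins of several regions of the particle. MRPS5 encodes uS5m, whose bacterial counterpart sits near the decoding site. It read 38.3, 44.1 and 41.4 CPM in the W81A strain, against 33.6, 34.4 and 33.7 CPM in the TAF14 strain. Each W81A library was above each TAF14 library (log2 fold change 0.28 ± 0.07 SE, adjusted p = 0.00605). MRP51 encodes bS1m, a protein linked to translation of the mitochondrial COX2 and COX3 messages. It read 115, 126 and 116 CPM in the W81A strain, against 107, 87.7 and 97.9 CPM in the TAF14 strain. The groups again did not overlap (0.29 ± 0.07, adjusted p = 0.00919).

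RSM18 and MRP17 encode bS18m and bS6m, whose bacterial counterparts bind the small subunit RNA as a pair. RSM18 read 47.2, 53.1 and 43.0 CPM in the W81A strain, against 36.5, 38.3 and 36.6 CPM in the TAF14 strain (0.36 ± 0.08, adjusted p = 0.00621). MRP17 read 20.9, 24.6 and 20.9 CPM in the W81A strain, against 18.3, 17.2 and 16.8 CPM in the TAF14 strain (0.34 ± 0.11, adjusted p = 0.0273). Both genes were higher in all 3 W81A libraries, with replicate 2 the highest. MRPS12, for uS12m of the decoding centre, had the largest rise of the called members at 0.43 ± 0.14 (adjusted p = 0.0279), and read 50.2, 59.3 and 59.5 CPM in the W81A strain, against 40.9, 43.2 and 41.5 CPM in the TAF14 strain. MRP2, for uS14m, rose by 0.28 ± 0.10 with an adjusted p of 0.0494 and lost the call in 10 of the 12 fits that left out 1 library.

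Among large subunit genes MRPL7, which encodes uL5m of the central protuberance, had the smallest p. It read 48.0, 57.9 and 48.4 CPM in the W81A strain, against 41.6, 39.9 and 41.9 CPM in the TAF14 strain, so the lowest W81A library stood above the highest TAF14 library (0.32 ± 0.08, adjusted p = 0.00605). MRPL39, for bL33m, read 30.9, 32.8 and 32.1 CPM in the W81A strain, against 21.2, 23.6 and 28.1 CPM in the TAF14 strain (0.40 ± 0.11, adjusted p = 0.0144). MRPL22, for uL22m, which lines the exit tunnel in bacteria, rose by 0.25 ± 0.07 (adjusted p = 0.014), and MRPL16, for uL16m, by 0.27 ± 0.08 (adjusted p = 0.0145). MRPL36 and MRPL33, for bL31m and uL30m, rose by 0.32 ± 0.12 and 0.25 ± 0.09, with adjusted p of 0.0473 and 0.048, and lost the call in 8 and 9 of the 12 fits that left out 1 library. The rises were modest: over the 14 called members the fold lay between 1.14 for MRPL13 (mL50) and 1.34 for MRPS12.

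**Figure D2:**
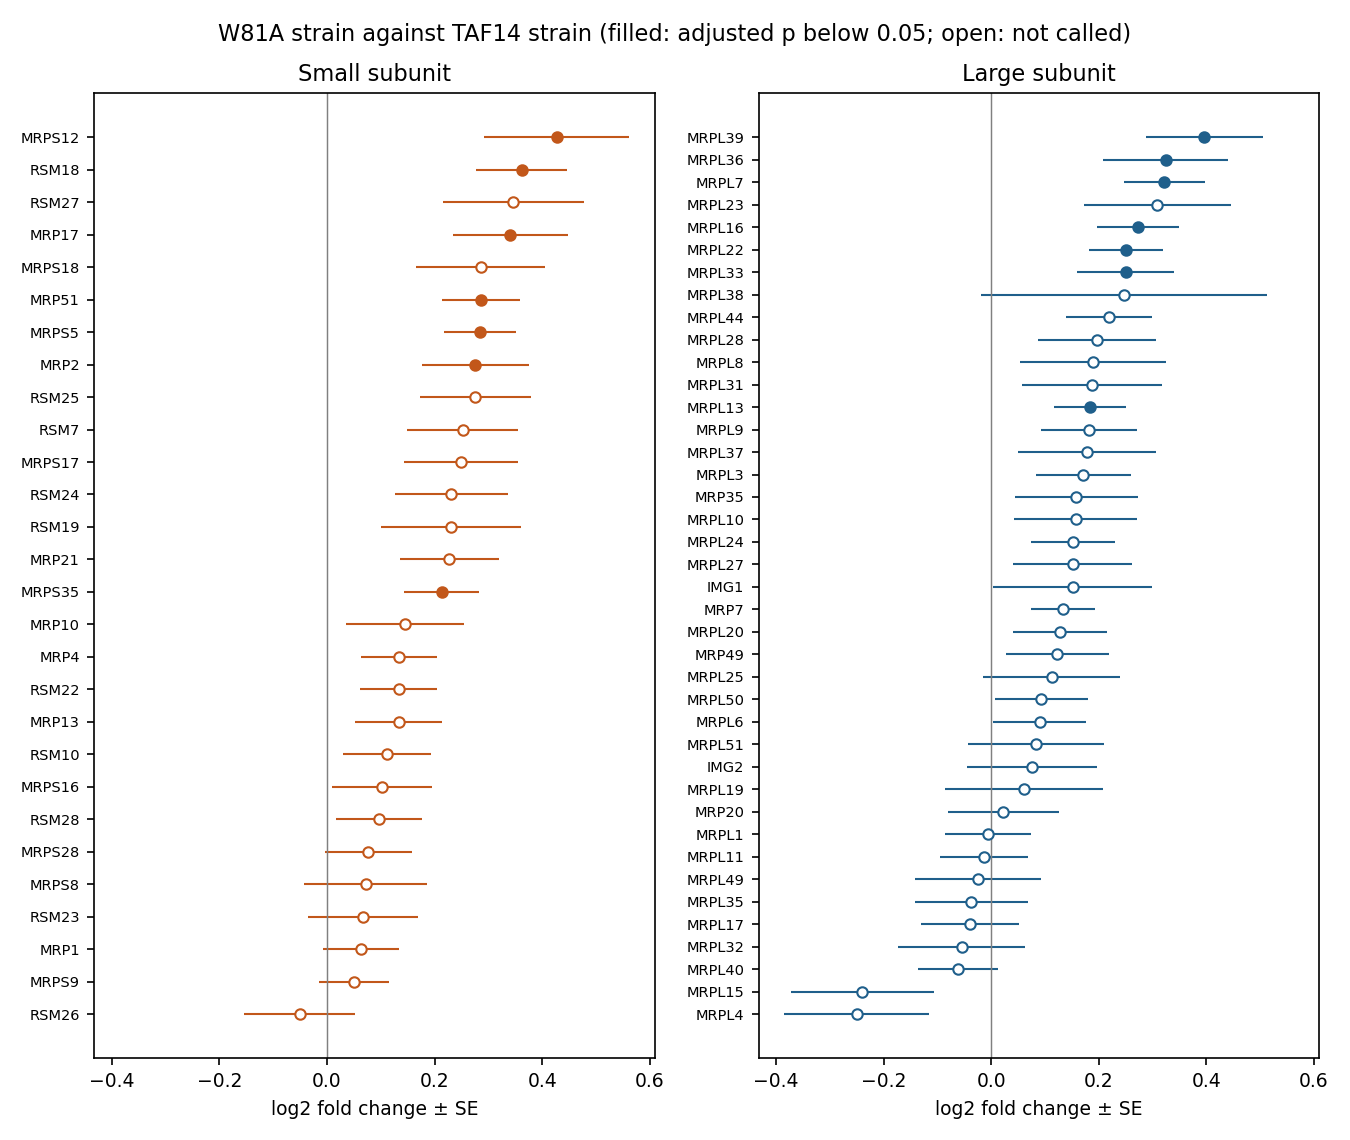
Log2 fold change of the W81A strain over the TAF14 strain (horizontal axis, with the standard error) for each of the 28 small and 40 large subunit genes, ordered by value. Filled points were called at an adjusted p below 0.05; 7 in each subunit are filled, all to the right of 0, and MRPL4 and MRPL15 of chromosome XII stand lowest without being called.

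The count and the medians in the W81A strain rested partly on single libraries. W81A replicate 2 was the highest of its 3 libraries for 59 of the 68 members, whereas it was highest for 30.7% of all tested genes. Summed over the members it held 2926 CPM, against 2639 and 2587 CPM in W81A replicates 1 and 3. The sums were 2468, 2575 and 2614 CPM in the deletion strain, 2491, 2373 and 2468 CPM in the TAF14 strain, and 2606, 2583 and 2540 CPM in the wild type. Without replicate 2 the members called higher against the TAF14 strain were 5, and the median log2 fold change was 0.089 with 55 of 68 above 0 (0.17 over small and 0.081 over large subunit genes). Without TAF14 replicate 1 the count was 8, and without TAF14 replicate 3 it was 9. The share of all tested genes called in these smaller fits is not given here. A loss of power for every gene therefore cannot be told apart from a trait of the members in these counts. Without TAF14 replicate 2 the median was 0.129, with 56 of 68 above 0 (0.157 over small and 0.126 over large subunit genes). The calls on MRP51, MRPL7, MRPS5 and RSM18 held in all 12 fits that left out 1 library. Those on MRP17 and MRPL16 were lost without W81A replicate 2 or TAF14 replicate 3 (adjusted p up to 0.118 and 0.0692), that on MRPL22 without W81A replicate 2 or 3 (up to 0.0554), and that on MRPL39 without TAF14 replicate 1 (0.0569). MRPS12 lost its call without W81A replicate 2 or 3 or TAF14 replicate 1 or 3 (up to 0.0905).

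The deletion strain against the TAF14 strain compares having no Taf14 with the intact gene on the plasmid. The 3 deletion libraries and TAF14 replicate 2 also carried the higher chromosome XII signal, and its part in these differences was not tested. In this comparison 10 members were called higher and 3 lower, 14.7% and 4.41% of members against backgrounds of 24.1% and 24.8%. The higher calls were 7 small subunit and 3 large subunit genes, and the lower calls 1 small and 2 large. Medians were 0.084 over all members, 0.14 over small and 0.033 over large subunit genes. Without TAF14 replicate 2 these were 0.040, 0.086 and 0.011, and without deletion replicate 3 they were 0.052, 0.12 and 0.006. The large subunit median was 0.088 without deletion replicate 1, 0.058 without TAF14 replicate 1 and 0.018 without TAF14 replicate 3. The groups did not overlap for 18 members (26.5%), against 54.1% of tested genes.

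MRPS8, which encodes uS8m, a primary binder of the small subunit RNA in bacteria, led the small subunit. It read 40.7, 37.7 and 42.7 CPM in the deletion strain, against 28.2, 28.0 and 29.4 CPM in the TAF14 strain (0.50 ± 0.11, adjusted p = 0.00239). The deletion libraries were also above all W81A libraries (29.3, 34.8 and 25.9 CPM) and all wild type libraries (28.4, 23.7 and 30.6 CPM). RSM18 read 48.2, 44.3 and 52.0 CPM in the deletion strain, above the TAF14 libraries given earlier (0.38 ± 0.08, adjusted p = 0.00275). MRP17 read 21.2, 24.6 and 25.8 CPM there (0.45 ± 0.11, adjusted p = 0.00349). These 3 genes kept their call in all 12 fits that left out 1 library.

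MRPS5 rose by 0.20 ± 0.07 (adjusted p = 0.0249), MRP10, for mS37, by 0.32 ± 0.11 (0.0253) and MRPS28, for uS15m, by 0.22 ± 0.08 (0.04). MRPS5 lost the call without deletion replicate 3 or TAF14 replicate 1 or 3 (adjusted p up to 0.0643), MRP10 without deletion replicate 2 or TAF14 replicate 2 or 3 (up to 0.106), and MRPS28 in 6 of the 12 fits. Against this direction, MRP2 fell to 15.1, 14.7 and 15.9 CPM in the deletion strain, against 18.2, 17.2 and 20.2 CPM in the TAF14 strain. The difference was -0.28 ± 0.10 (adjusted p = 0.0401), and it too was lost in 6 of the 12 fits.

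In the large subunit MRPL4, for uL29m at the tunnel exit, rose by 0.65 ± 0.13 (adjusted p = 0.00102). It lies on chromosome XII and is taken up again below. MRPL28, for mL40, read 19.8, 26.2 and 24.0 CPM in the deletion strain, against 18.8, 16.8 and 18.9 CPM in the TAF14 strain (0.36 ± 0.11, adjusted p = 0.014; 0.0635 without deletion replicate 2). MRPL7 rose by 0.23 ± 0.08 (adjusted p = 0.0249), lost without deletion replicate 3 or TAF14 replicate 2 (up to 0.0752).

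MRPL17, which encodes mL46 of the central protuberance, fell. It read 33.4, 29.6 and 28.9 CPM in the deletion strain, against 40.9, 36.4 and 38.6 CPM in the TAF14 strain (-0.34 ± 0.09, adjusted p = 0.00908). MRPL49, for bL21m, read 22.3, 23.2 and 26.7 CPM in the deletion strain, against 32.8, 27.0 and 34.3 CPM in the TAF14 strain. Its groups nearly touched (-0.38 ± 0.12, adjusted p = 0.0192), and the call was lost in 4 of the 12 fits. Without deletion replicate 3 the higher calls numbered 6, and without deletion replicate 1 or 2 or TAF14 replicate 1 or 3 the lower calls numbered 1. No share of all tested genes in those fits is given beside these counts.

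Set against the wild type, the deletion strain gave calls in both directions. There were 6 higher and 8 lower members, 8.82% and 11.8% of members against backgrounds of 24.0% and 24.9%. The higher calls were 2 small and 4 large subunit genes and the lower calls 3 small and 5 large. The median was -0.004, with 34 members above and 34 below 0. It was 0.050 without deletion replicate 1, 0.022 without deletion replicate 2, 0.021 without wild type replicate 1, 0.017 without wild type replicate 2 and -0.008 without deletion replicate 3. Without chromosome XII genes the median was 0.024, with 38 of 66 members above 0. Here the groups did not overlap for 26 members (38.2%; background 58.2%). Without wild type replicate 3 the higher calls numbered 3, and without deletion replicate 2 the lower calls numbered 5, both without a background from the same fits.

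MRPL17 had the largest fall of any member. It averaged 30.6 ± 2.44 CPM in the deletion strain and 46.6 ± 1.75 CPM in the wild type (SD, n = 3 each), whose libraries read 47.6, 44.6 and 47.7 CPM. The highest deletion library stood more than 10 CPM below the lowest wild type library. The log2 fold change was -0.61 ± 0.09 SE (adjusted p = 0.000152). MRPL17 also stood between these levels in the other strains: 36.8, 42.3 and 33.6 CPM in the W81A strain and 38.6 ± 2.27 CPM (SD, n = 3) in the TAF14 strain.

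RSM26, for mS42, averaged 26.9 ± 3.27 CPM in the deletion strain and 37.2 ± 4.03 CPM in the wild type (SD, n = 3 each), with no overlap between the libraries. It fell by 0.47 ± 0.10 on the log2 scale (adjusted p = 0.00245). MRP2 fell by 0.41 ± 0.10 on the log2 scale against wild type libraries of 18.9, 19.8 and 22.2 CPM (adjusted p = 0.005). MRP7 encodes bL27m, which reaches the peptidyl transferase centre in bacteria. It read 74.0, 75.6 and 73.1 CPM in the deletion strain, against 90.2, 88.6 and 92.9 CPM in the wild type (-0.29 ± 0.06, adjusted p = 0.00169). All 4 of these falls, that of MRPL17 included, held in each fit that left out 1 library.

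MRP1, for mS43, fell by 0.26 ± 0.07 (adjusted p = 0.00873; 0.0578 without deletion replicate 2) and MRPL22 by 0.23 ± 0.07 (0.013; 0.0512 without deletion replicate 2). MRPL1, for uL1m of the stalk, fell by 0.28 ± 0.08 (0.0114; 0.0504 without wild type replicate 2). Among the higher calls were 4 genes that were also called higher relative to the TAF14 strain: MRPS8 (0.55 ± 0.11, adjusted p = 0.00139), MRP17 (0.44 ± 0.11, 0.00414), MRPL28 (0.36 ± 0.11, 0.0151) and MRPL4 of chromosome XII. MRP17 read 15.7, 18.9 and 18.2 CPM in the wild type, close to its level in the TAF14 strain. MRPL6, for uL6m, read 36.0, 38.4 and 35.9 CPM in the deletion strain, against 32.1, 31.4 and 26.6 CPM in the wild type (0.29 ± 0.09, adjusted p = 0.0142; 0.0603 without wild type replicate 3). MRPL28 lost its call without deletion replicate 2 or wild type replicate 3 (up to 0.0674). The remaining higher call was MRPL15, also on chromosome XII.

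**Figure D3:**
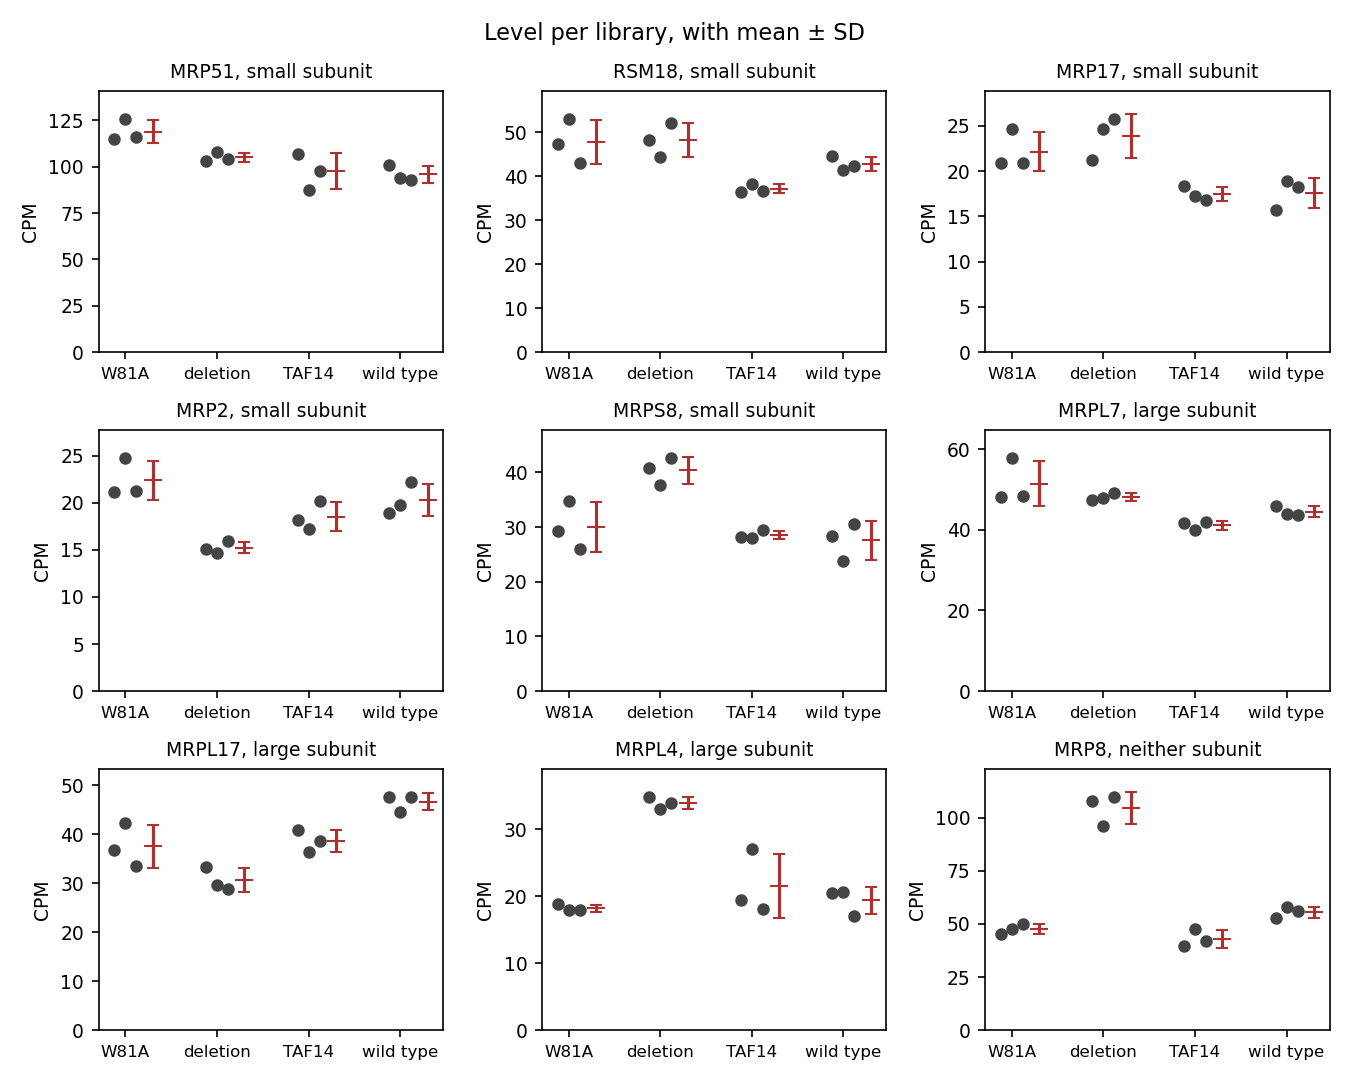
CPM in each library (dots) with the mean and SD (red bars) in the W81A strain, the deletion strain, the TAF14 strain and the wild type for 8 members and for MRP8. MRPS8, MRPL4 and MRP8 are highest in the deletion strain, MRP2 and MRPL17 are lowest there, and MRP51 is highest in the W81A strain.

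Fewer members were called between the W81A strain and the wild type. There were 5 higher, all of the small subunit, and 1 lower, of the large subunit, 7.35% and 1.47% of members against backgrounds of 12.7% and 14.5%. At an unadjusted p below 0.05, 7 large subunit genes were higher and 1 small subunit gene lower, and DESeq2 called none of these. The backgrounds above are for adjusted p and do not apply to these unadjusted counts. The groups did not overlap for 21 members (30.9%; background 48.0%). MRP51 had the smallest p: its wild type libraries read 101, 94.1 and 92.6 CPM, all below the W81A libraries given above (0.31 ± 0.07, adjusted p = 0.00684). It was the only member called in this comparison whose call held in all 12 fits without 1 library.

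RSM7, for uS7m, which nucleates the head of the small subunit in bacteria, read 33.4, 36.3 and 30.1 CPM in the W81A strain, against 27.7, 27.8 and 21.9 CPM in the wild type (0.37 ± 0.10, adjusted p = 0.0197). MRPS12 rose by 0.46 ± 0.14 (0.0231), and its wild type libraries spread from 32.6 to 47.4 CPM. MRPL17 fell by 0.31 ± 0.09 (0.0215). RSM7 lost its call without wild type replicate 3 or W81A replicate 1 or 2, MRPS12 without wild type replicate 3 or W81A replicate 2 or 3, and MRPL17 without wild type replicate 1 or 3 or W81A replicate 1 or 3 (adjusted p up to 0.0863, 0.0845 and 0.097). The higher calls numbered 1 without W81A replicate 2, 1 without wild type replicate 3, 2 without W81A replicate 3 and 3 without wild type replicate 1. These counts have no background from the same fits. Without W81A replicate 2 the median of the members was 0.022, with 36 of 68 above 0.

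Between the TAF14 strain and the wild type almost no member was called. None was called higher in the TAF14 strain (background 8.11%) and 2 were called lower, 2.94% against a background of 8.75% (16.9% of tested genes in either direction). At an unadjusted p below 0.05, 1 member was higher, a count without a background here, and DESeq2 called none higher. The groups did not overlap for 11 members (16.2%; background 33.5%). The median was below 0, at -0.085, with 52 of 68 members below 0. MRP7 read 80.8, 73.1 and 79.7 CPM in the TAF14 strain, below all wild type libraries (-0.22 ± 0.06, adjusted p = 0.0263). MRPL22 read 46.3, 40.8 and 45.1 CPM in the TAF14 strain, against 52.7, 49.0 and 53.5 CPM in the wild type (-0.23 ± 0.07, adjusted p = 0.0353). The call on MRP7 was lost without wild type replicate 1 or 3 or TAF14 replicate 2 (adjusted p up to 0.0781), and that on MRPL22 in 6 of the 12 fits. The lower calls numbered 0 without wild type replicate 1 and 0 without TAF14 replicate 2, with no background from those fits.

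The W81A strain was also set against the deletion strain, the mutant protein against no Taf14. The deletion libraries carried the higher chromosome XII signal as well, and its part in these differences was not tested. There were 10 higher and 3 lower members, 14.7% and 4.41% of members against backgrounds of 22.7% and 22.5%, and the groups did not overlap for 19 members (27.9%; background 57.8%). MRP2 had the smallest p of the higher calls: it read 21.1, 24.8 and 21.3 CPM in the W81A strain, all above the deletion libraries (0.55 ± 0.10, adjusted p = 0.00082). MRPS35, for mS45, read 55.1, 64.4 and 60.2 CPM in the W81A strain, against 47.8, 48.2 and 48.2 CPM in the deletion strain (0.32 ± 0.07, adjusted p = 0.00275). MRPL22 read 49.3, 54.2 and 53.6 CPM in the W81A strain, against 43.1, 44.2 and 44.7 CPM in the deletion strain (0.25 ± 0.07, adjusted p = 0.00986).

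MRP7 rose by 0.20 ± 0.06 (adjusted p = 0.0162; up to 0.0774 without W81A replicate 2 or deletion replicate 2 or 3). In the other direction MRPS8 was lower in the W81A strain, at -0.43 ± 0.11 (adjusted p = 0.00721). The lower calls besides MRPS8 were the 2 members on chromosome XII. The higher calls numbered 3 without W81A replicate 2, 5 without deletion replicate 2 and 6 without deletion replicate 1. No share of all tested genes called in those fits is given, so a general loss of power is not set apart. The calls on MRP2, MRPS35, MRPL22, MRPL4 and MRPS8 held in all 12 fits without 1 library.

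MRPL4 and MRPL15 are the members on chromosome XII, whose signal was higher in the deletion libraries and TAF14 replicate 2. MRPL4 read 34.9, 33.0 and 33.9 CPM in the deletion strain, 19.4, 27.0 and 18.1 CPM in the TAF14 strain, and 20.5, 20.7 and 17.1 CPM in the wild type. The one TAF14 library that stood above all wild type libraries was replicate 2, the library with the chromosome XII shift. The deletion libraries were above that library too. In log2 units above the wild type mean, MRPL4 stood at 0.85, 0.77 and 0.80 in the deletion strain and 0.48 in TAF14 replicate 2, against chromosome medians of 0.44, 0.45 and 0.51 in the deletion strain and 0.55 in TAF14 replicate 2. The fitted change of the deletion strain was 0.80 ± 0.13 against the wild type (adjusted p = 0.000249), and the W81A strain stood 0.90 ± 0.13 below the deletion strain (adjusted p = 0.000136).

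MRPL15, for mL57, read 42.9, 44.5 and 47.9 CPM in the deletion strain, 34.5, 49.2 and 35.4 CPM in the TAF14 strain, and 34.3, 35.4 and 34.1 CPM in the wild type. Here TAF14 replicate 2 was the highest of all 12 libraries. The deletion strain was 0.38 ± 0.13 above the wild type (adjusted p = 0.0288; lost without deletion replicate 3 or any 1 wild type library, up to 0.0951), and the W81A strain stood 0.42 ± 0.13 below the deletion strain (adjusted p = 0.0207; up to 0.0837 without deletion replicate 3 or W81A replicate 1 or 3). Against the TAF14 strain the deletion strain was not called (0.18 ± 0.13, adjusted p = 0.277), and it was called when TAF14 replicate 2 was left out (0.37, adjusted p = 0.00823). The part of the chromosome's signal in these values was not tested. With both genes set aside, large subunit genes higher in the deletion strain numbered 2 of 38 against the wild type and 2 of 38 against the TAF14 strain.

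The 2 subunits were compared by the median log2 level of their genes above the wild type mean in each library, small minus large. The difference was 0.098, 0.063 and 0.019 in the W81A strain, 0.13, 0.10 and 0.087 in the deletion strain, 0.006, 0.010 and 0.028 in the TAF14 strain, and -0.026, -0.019 and 0.012 in the wild type. All 3 deletion libraries stood above all TAF14 and wild type libraries. The W81A libraries stood above all wild type libraries but overlapped with the TAF14 libraries. The W81A strain averaged 0.060 ± 0.040, the deletion strain 0.11 ± 0.023, the TAF14 strain 0.015 ± 0.012 and the wild type -0.011 ± 0.020 (SD, n = 3 each). These are small differences in log2 units, and no test of them was made.

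Small subunit genes had medians of 0.014, 0.082 and 0.11 in the deletion libraries and large subunit genes -0.12, -0.021 and 0.022. The large subunit stood below 0 in 2 of the 3, while the median of all tested genes was -0.015, -0.015 and -0.011. Its value in deletion replicate 2 was thus close to that of all genes. Fitted medians of the deletion strain against the wild type were 0.081 over small and -0.028 over large subunit genes. Without chromosome XII genes they were 0.118 and -0.004. In the W81A strain replicate 2 was high in both subunits, at 0.25 and 0.19, against 0.081 and -0.017 in replicate 1 and 0.028 and 0.009 in replicate 3, so that its small minus large difference was not out of line with theirs. From the fitted log2 fold changes, the small subunit median exceeded the large subunit median by 0.069 in the W81A strain and 0.10 in the deletion strain relative to the TAF14 strain, and by 0.080, 0.11 and 0.010 in the W81A, deletion and TAF14 strains against the wild type. Between the W81A and deletion strains the difference of medians was -0.003. The first of these was 0.029 without W81A replicate 3 and 0.088 without TAF14 replicate 3.

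**Figure D4:**
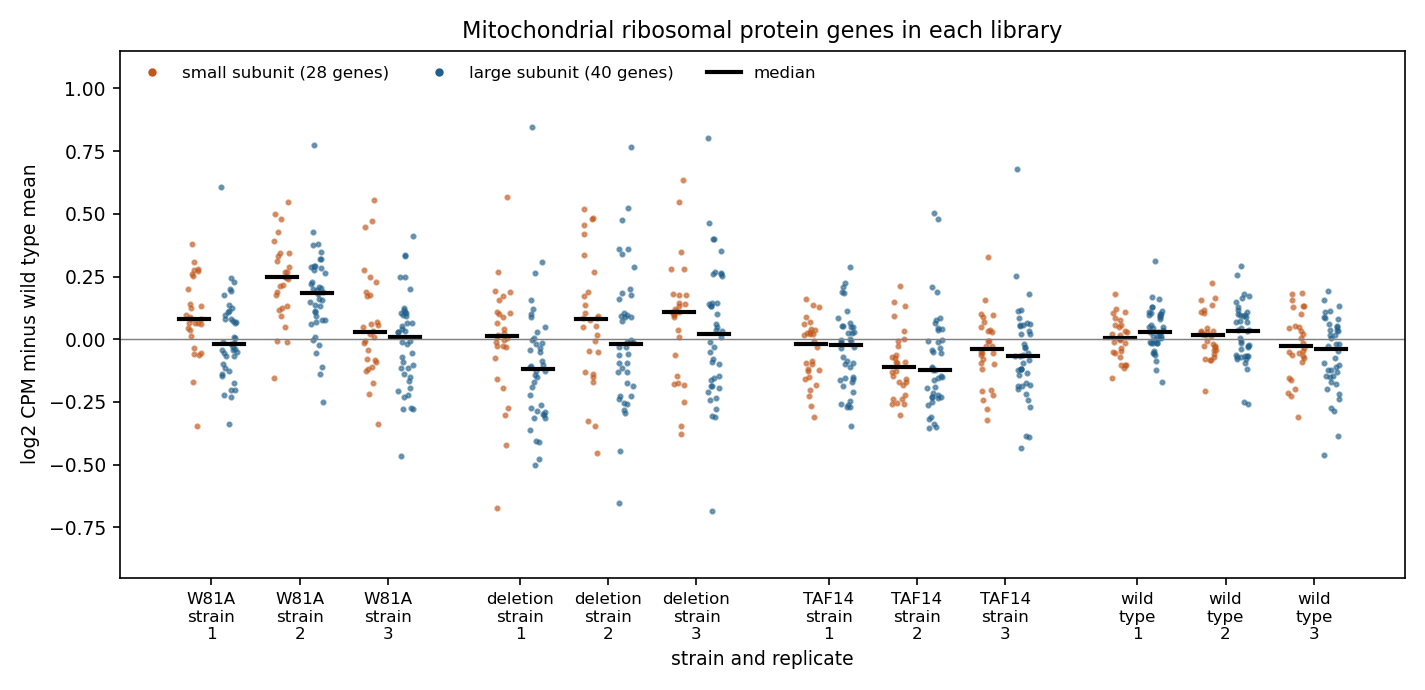
Log2 CPM minus the wild type mean (vertical axis) for each small subunit gene (orange) and large subunit gene (blue) in each of the 12 libraries, with the median of each subunit as a black bar. W81A replicate 2 has the highest medians of any library (0.25 and 0.19), and the small subunit bar stands above the large subunit bar in all 3 deletion libraries.

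Members were also divided into the 42 with a counterpart in the bacterial ribosome and the 25 found in mitochondria alone, RSM22 being left unassigned. In the W81A strain relative to the TAF14 strain, 12 of the 42 and 2 of the 25 were called higher, with medians of 0.17 and 0.13, and 15.8% of all tested genes were called higher. In the deletion strain against the wild type the calls were 4 higher and 5 lower of the 42, and 2 higher and 3 lower of the 25, against backgrounds of 24.0% higher and 24.9% lower. The medians there were 0.040 and -0.054. No test of the difference between these classes was made.

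MRP8 carries the name of a mitochondrial ribosomal protein from an early sequence analysis, but the annotation places the protein in the cytoplasm. Its level was highest in the deletion strain. It read 108, 96.1 and 110 CPM in the deletion strain, 45.2, 47.4 and 49.8 CPM in the W81A strain, 39.4, 47.6 and 41.8 CPM in the TAF14 strain, and 52.6, 57.8 and 55.9 CPM in the wild type. All deletion libraries stood well above all others. The deletion strain was 2.43-fold above the TAF14 strain (log2 1.28 ± 0.08, adjusted p = 7.78e-08) and 1.89-fold above the wild type (0.92 ± 0.08, adjusted p = 1.5e-06), and the W81A strain was 1.14 ± 0.08 log2 units below the deletion strain (adjusted p = 2.95e-07). The TAF14 strain was lower than the wild type at -0.37 ± 0.08 (adjusted p = 0.0104). The W81A strain was not called against the TAF14 strain (0.14 ± 0.08, adjusted p = 0.209) or the wild type (-0.22 ± 0.08, adjusted p = 0.0627).

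The other nuclear genes of mitochondrial translation were taken as 63 genes in 5 lists, 62 of them tested: mitochondrial ribosomal proteins with other names, translation factors, aminoacyl-tRNA synthetases, activators of single messages, and assembly and anchoring factors. Relative to the TAF14 strain, 14 of the 62 were called higher and 2 lower in the W81A strain (background 15.8% and 17.2%). In the deletion strain relative to the TAF14 strain, 13 were higher and 7 lower (background 24.1% and 24.8%). Relative to the wild type the higher and lower calls were 2 and 7 in the W81A strain (background 12.7% and 14.5%). They were 8 and 12 in the deletion strain (background 24.0% and 24.9%), and 5 were lower in the TAF14 strain (background 8.75%). At 25.8% in the W81A strain relative to the TAF14 strain, the share called in either direction was below the 33.0% of all tested genes, as it was in the deletion strain against the wild type (32.3% against 48.9%).

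Of the 11 tested ribosomal proteins with other names, 4 were called higher in the W81A strain relative to the TAF14 strain (background 15.8%). Their median was 0.21. SWS2, for uS13m, rose by 0.32 ± 0.09 (adjusted p = 0.0184), FYV4, for mS41, by 0.29 ± 0.09 (0.0199) and YML6, for uL4m, by 0.26 ± 0.08 (0.0259). Factors that serve the ribosome are named next in differing comparisons, and only FMT1 in the same comparison as these proteins. FMT1, the formyltransferase of the initiator tRNA, rose by 0.82 ± 0.15 in the W81A strain relative to the TAF14 strain (adjusted p = 0.00154). IFM1, the initiation factor, rose by 0.48 ± 0.09 in the W81A strain relative to the deletion strain (adjusted p = 0.000764). PET54, an activator of COX3 translation, fell by 0.42 ± 0.08 in the deletion strain relative to the TAF14 strain (adjusted p = 0.000744), and MSK1, the mitochondrial lysyl-tRNA synthetase, fell by 0.48 ± 0.07 there against the wild type (9.08e-05).

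Of 11 tested regulators of mitochondrial protein genes, 3 were called higher and 3 lower in the W81A strain (54.5%; background 33.0% in either direction) and 5 higher and 1 lower in the deletion strain (54.5%; background 48.9%) relative to the TAF14 strain. Relative to the wild type, 2 were called in the W81A strain, both lower (18.2%; background 27.2%), 2 higher and 1 lower in the deletion strain (27.3%; background 48.9%), and 1 higher and 2 lower in the TAF14 strain (27.3%; background 16.9%). Relative to the deletion strain, 3 were called in the W81A strain, each of them lower (27.3%; background 45.2%). PUF3 itself rose in the deletion strain, by 0.65 ± 0.16 against the TAF14 strain (adjusted p = 0.00429) and 0.67 ± 0.16 against the wild type (0.00364). It lies on chromosome XII, whose median gene stood 0.44, 0.45 and 0.51 above the wild type mean in the deletion libraries, and the part of that signal in its rise was not tested. HAP4, the activating subunit of the Hap complex that drives respiratory genes, fell by 1.17 ± 0.19 in the W81A strain against both the TAF14 strain (0.000458) and the wild type (0.000549). The HAP1 transcript fell by 0.87 ± 0.11 in the W81A strain and 0.89 ± 0.11 in the deletion strain relative to the TAF14 strain (7.39e-05 and 2.46e-05). HAP1 lies on chromosome XII too. That chromosome's signal was higher in TAF14 replicate 2, among the libraries HAP1 was set against, and also in the deletion libraries themselves. The part of that signal in the HAP1 values was not tested. Whether any of these bears on the members was not tested.

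Genes that share the Puf3-type letters but are not members had medians close to 0. Over 671 tested genes with TGTANATA their median was 0.044 in the W81A strain and 0.032 in the deletion strain relative to the TAF14 strain, and 0.022, -0.010 and -0.019 in the W81A, deletion and TAF14 strains against the wild type. The members' medians in the same order were 0.15, 0.084, 0.086, -0.004 and -0.085. Cytosolic ribosomal protein genes went the other way from the members in the W81A strain relative to the TAF14 strain, with a median of -0.30. Of these, 90 of 135 were called lower and 1 higher (background 17.2% and 15.8%). Of the nuclear respiratory chain and ATP synthase genes 21 of 37 were called higher there (background 15.8%), with a median of 0.36. In the TAF14 strain against the wild type 24 of the 37 were called lower (background 8.75%), with a median of -0.38, beside 2 of the 68 members. No test compared these lists with the members.

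**Figure D5:**
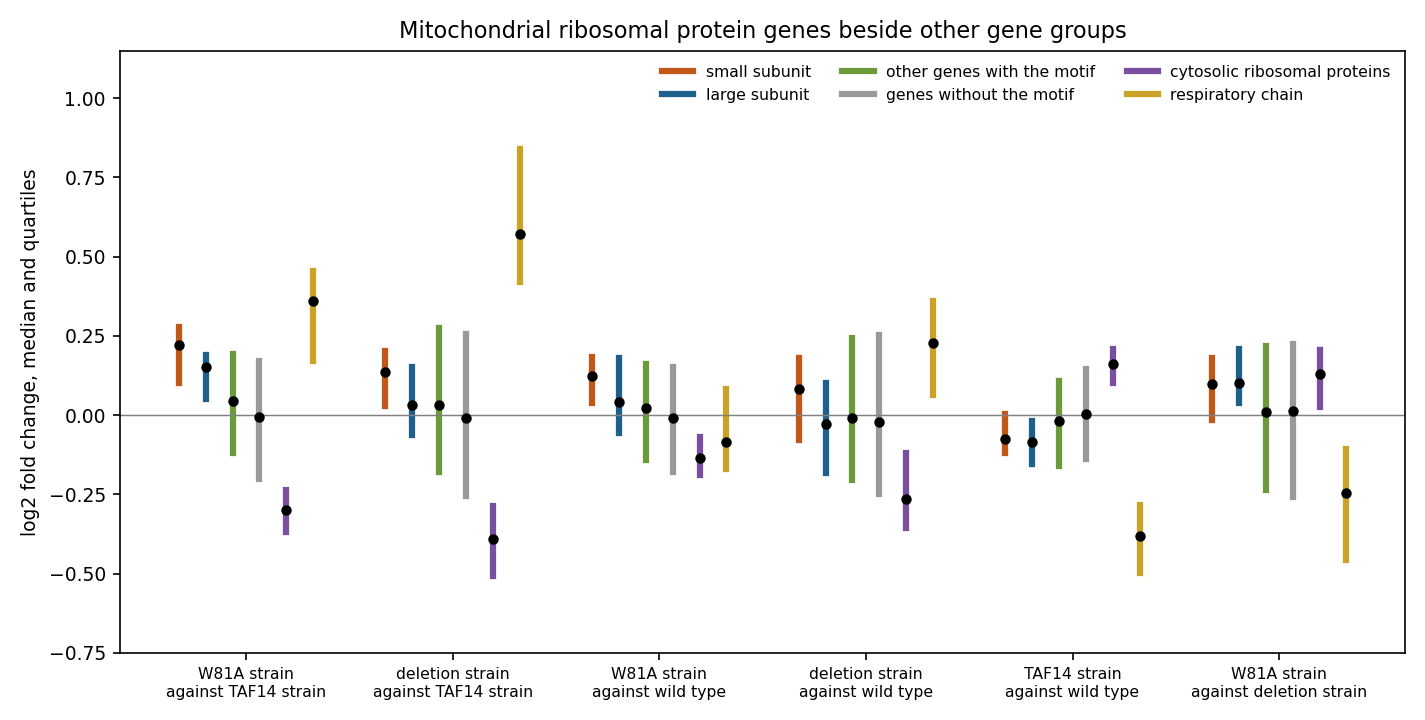
Median log2 fold change (black points) and quartiles (coloured bars) in each of the 6 comparisons for small subunit genes, large subunit genes, other genes with TGTANATA, genes without it, cytosolic ribosomal protein genes, and respiratory chain and ATP synthase genes. The medians of the 2 subunits lie between -0.085 and 0.22 over the 6 comparisons, and lie between those of respiratory genes at 0.57 and cytosolic ribosomal protein genes at -0.39 in the deletion strain relative to the TAF14 strain.

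Many members face a neighbour across a shared promoter region. For 27 members the gene upstream runs the other way and starts within 500 bp. In the deletion strain relative to the TAF14 strain 6 of these 27 members were called, and the neighbour was called in the same direction for 4 of them and in the opposite direction for none. Of all 27 neighbours, 14 were called there (51.9%; background 48.9%). CMI8, next to MRPL28, rose by 1.65 ± 0.16 (adjusted p = 3.49e-06) beside 0.36 for MRPL28. AIM36, next to MRPS8, rose by 0.33 ± 0.11 (0.0194) beside 0.50 for MRPS8. JHD1, next to RSM18, rose by 0.45 ± 0.10 (0.0018), and LSM3, next to MRPL4 and also on chromosome XII, by 0.53 ± 0.16 (0.0161). In the W81A strain relative to the TAF14 strain 6 of the 27 were called, with 1 neighbour in the same direction and 1 in the opposite direction: URA7, next to MRPL16, fell by 0.30 ± 0.07 (0.00633) while MRPL16 rose. Of all 27 neighbours, 8 were called there (29.6%; background 33.0%). In the other comparisons the neighbour was called in the same direction for 3 of 6 called members in the deletion strain against the wild type, 2 of 4 in the W81A strain against the deletion strain, 0 of 2 in the W81A strain against the wild type and 0 of 1 in the TAF14 strain against the wild type. The edgeR calls among all 27 neighbours numbered, in that order, 8, 10, 4 and 6. The backgrounds in either direction were, in that order, 48.9%, 45.2%, 27.2% and 16.9% of all tested genes. Among these comparisons, the share of neighbours called exceeded the background only in the TAF14 strain against the wild type. MRPL4 and LSM3, both on chromosome XII, were called in the same direction in each comparison that involves the deletion strain. The part of that chromosome's signal in these pairs was not tested. No test of shared direction was made. These neighbours were picked by position and named after their values were seen.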

How the data were processed

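Total RNA libraries (stranded TruSeq with Ribo-Zero Gold, phenol chloroform extraction and DNase treatment, per the labels' protocols) were deposited by the authors as 1 table of raw counts per gene, with a column for each of the 12 libraries. The submitters' processing notes name TopHat2 2.0.14, SAMtools 0.1.19, HTSeq 0.6.1p1 and DESeq2 1.8.1 and the sacCer3 build. The strand setting and the annotation used for counting are not given in the sources used here. Reads without molecular identifiers are not independent molecules, so counting precision is a lower bound on error, and a count of 0 allows up to 0.327 CPM (a limit of 3 counts).

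From the counts, R 4.3.3 with edgeR 4.0.16 (TMM scaling, filterByExpr, quasi-likelihood test) fitted 1 model with 4 groups to all 12 libraries. Of 6692 entries, 774 were removed by the filter and 5918 tested, with a biological coefficient of variation of 8.59% and 8 residual degrees of freedom. Standard errors of log2 fold changes were derived from the F statistic. CPM values use TMM-scaled library sizes. Names, coding lengths and the windows searched for motifs came from the R64 genome and its RefSeq annotation, which matched 6008 entries; the 684 others held 0.952% of counts. Near-identical copies of members (at least 95% identity over 30% of the coding sequence) were sought with blastn 2.17.0+, Python 3.11.15 was used for summaries and matplotlib 3.10.9 for plots. The scripts were tested on simulated counts with known changes.

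Members and gene lists were chosen with earlier results of these data known. Members named in the text were, for each comparison, those with the smallest p among called members whose groups did not overlap (up to 6 per subunit in the comparisons of the W81A and deletion strains with the TAF14 strain and of the deletion strain with the wild type, up to 3 per subunit elsewhere), the calls against the main direction, the chromosome XII members, IMG1, IMG2, MRP8, RSM22, and the 3 highest and 3 lowest per kilobase; up to 3 genes with the smallest p were named from each further list. FYV4, YML6, SWS2, MRPL13 and other names outside this rule were chosen after their values were seen. Other scaling, filters, DESeq2 1.42.0, a replicate block, fits without chromosome XII genes, fits of 6 libraries and fits without each library in turn were tried. Replicate numbers shared between strains did not pair the libraries.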

Additional observations from a re-analysis of the deposited data

How the results depend on the processing

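No call on a named member reversed its direction under the alternatives tried. For members called higher, the W81A strain relative to the TAF14 strain gave 10 with DESeq2. The W81A strain against the wild type gave 8 with those 6 libraries fitted alone. For members called lower, the W81A strain against the wild type gave 2 under the 10 CPM filter, 2 with a replicate block, 2 with the 6 libraries alone and 3 without chromosome XII genes. The TAF14 strain against the wild type gave 0 lower with the 6 libraries alone and 1 with DESeq2, and the W81A strain against the deletion strain gave 1 lower without chromosome XII genes, which removes 2 of its 3 called members. The other genes of mitochondrial translation called numbered 10 in the W81A strain relative to the TAF14 strain and 3 in the TAF14 strain against the wild type with 6 libraries alone. Except for the chromosome XII case, the cause was not tested. The shares of all tested genes called under these alternatives are not given here.

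Leaving out 1 library at a time gave, for members called higher and lower, 5 to 16 and 0 to 0 in the W81A strain and 6 to 11 and 1 to 3 in the deletion strain relative to the TAF14 strain. Against the wild type the counts were 1 to 7 and 0 to 3 in the W81A strain, 3 to 7 and 5 to 8 in the deletion strain, and 0 to 1 and 0 to 3 in the TAF14 strain. In the W81A strain against the deletion strain they were 3 to 13 and 2 to 4. The small minus large difference of medians ranged, in the same order, from 0.029 to 0.088, 0.070 to 0.135, 0.052 to 0.144, 0.096 to 0.136, -0.012 to 0.054 and -0.052 to 0.013. The other genes of mitochondrial translation called ranged from 6 to 18, 13 to 26, 7 to 13, 14 to 25, 2 to 5 and 18 to 26. The share of all tested genes called in each of these fits is not given. The ranges therefore do not separate members from a change in power over all genes.

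Same-numbered libraries of different strains did not deviate together: their correlations ran from -0.245 to 0.335, with 3 of 18 above 0.1, and 9 of 36 differently numbered pairs were above 0.1. With the replicate number as a block, 14 members were higher in the W81A strain relative to the TAF14 strain, as without it. At this depth and with 3 libraries a strain, the median standard error of a member's log2 fold change was between 0.102 and 0.103. Differences close to that size were not detectable, and larger ones could go uncalled too. RSM19, at 0.354 in the W81A strain against the wild type, was not called.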
